A study of Mus musculus with 6 samples.

Results

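The 10 genes described here belong to bone morphogenetic protein (BMP) signalling and were followed across 6 RNA-seq libraries of mouse pacemaker-like heart cells. They were the ligand genes Bmp2, Bmp4, Bmp5, Bmp6 and Bmp7, and the direct target genes Id1, Id2, Id3, Smad6 and Smad7. The members were the rows carrying these symbols, and all 10 were found among the 30631 genes listed for each library. All 10 also passed the filter on low values, 10 or more normalised counts in 3 or more libraries, and 17034 genes passed it and were tested.

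The cells came from mouse embryonic stem cell clones grown on mouse embryonic fibroblasts and differentiated in hanging drops toward cardiomyocytes of the sinoatrial node, the natural pacemaker of the heart. In both groups they were collected at stage 7+1 days by sorting for CD166, the surface protein encoded by Alcam. One group of 3 libraries was labelled wild type (Shox2+/+) and the other group of 3 was labelled Shox2-/-, lacking a homeobox transcription factor of the sinoatrial node. The titles of the 3 libraries labelled knockout share the prefix J2, those labelled wild type carry 3 different prefixes, and the design of the allele is not given in the sources used here. Genotype and stem cell clone therefore cannot be told apart. Separate cultures are not named for the libraries of a group. The p-values below therefore reflect the spread among these 6 samples, part of which may be technical.

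BMPs are secreted dimers of the TGF-beta superfamily. They bind complexes of type I and type II serine/threonine kinase receptors, which phosphorylate Smad1, Smad5 and Smad9. These join Smad4, enter the nucleus and bind DNA at GC-rich elements and Smad boxes. The Id genes are immediate targets, and their products are helix-loop-helix proteins without a DNA-binding region that capture E proteins. Smad6 and Smad7 are induced by the same pathway and inhibit it. In the embryo, BMP signals help to specify the cardiac mesoderm, the outflow tract and the atrioventricular canal, and Bmp4 has been placed downstream of Shox2 in the sinoatrial region.

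To show the starts of targets and a ligand, the RefSeq windows of 250 bases before to 50 bases after the annotated start (GRCm38.p6, the assembly also called mm10) were searched for 3 Smad motifs on both strands. These were GGCGCC, the palindrome GTCTAGAC, and the short motif GTCTG, whose reverse complement is CAGAC. No motif of the 3 contains another. Windows of 6 of the 10 members (Bmp4, Bmp5, Bmp6, Id2, Id3 and Smad6) are described here. Each line below gives 30 bases in the direction of the gene, with the motif in capitals.
Id2, at chr12:25096306-25096335 on the minus strand: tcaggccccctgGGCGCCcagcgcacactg
Smad6, at chr9:64022045-64022074 on the minus strand: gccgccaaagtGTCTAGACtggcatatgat
Bmp5, at chr9:75775218-75775247 on the plus strand: atagatcactgttGTCTGttacatgcatgg
Relative to the RefSeq start, the Id2 match began at −231, the Bmp5 match began at −134, and the Smad6 palindrome spanned the start itself. These starts are not always the outermost ones. In GENCODE M21 the Id2 stretch lies in an intron of a longer Id2 transcript, 15 of the 30 Smad6 bases lie in its first exon, and none of the Bmp5 stretch is exonic. Id3 held 2 short motifs, both inside an Id3 exon annotated in GENCODE, so they are not promoter matches by that annotation and are not printed. Of all 32851 windows of the same length, 11.87% held GGCGCC, 0.2131% held the palindrome and 49.59% held the short motif. Among the ligands, Bmp5 and Bmp6 each held 1 short motif, the latter within an annotated Bmp6 exon, and Bmp4 held none of the 3 motifs. A match is a description of the letters in the window, and binding was not measured.

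The deposited values are counts of reads after division by a library's size factor, and they are called normalised counts here. Read totals recovered from them ran from 13504683 to 34650564, and both groups had their shallowest library in library 1. Shox2 itself stood at 89.6, 83.4 and 31.4 normalised counts in the wild-type-labelled libraries and at 200.7, 548 and 373 in the knockout-labelled ones (log2 difference 2.46 ± 0.50 (SE), adjusted p = 0.201, limma). Its reads thus go against the labels, the deleted part of the gene is not given, and directions below are those of the labelled groups. Alcam, the gene of the sorting marker, was at 5841 to 6591 in the wild-type-labelled libraries and at 4176 to 5312 in the knockout-labelled ones (log2 difference −0.47, adjusted p = 0.242, limma). All 10 cardiomyocyte markers were tested. Their sum, led by Ttn and Tnni1, ran from 11158 to 29751 in the wild-type-labelled libraries and from 14400 to 36869 in the knockout-labelled ones. The 10 sinoatrial node markers, led by Gjc1 and Smoc2 and including Shox2 itself, summed to 5874 to 9071 and 6934 to 7615. Single markers moved both ways: 6 had higher and 4 had lower estimates, and 3, Shox2 among them, were higher and 2 were lower without overlap. Of all tested genes, 12.8% were higher and 10.8% were lower without overlap, shares that apply to the counts of each list here. Gjc1 was among the higher markers, with a log2 difference of 0.63, and Smoc2 among the lower ones, at −1.43. The sum of 12 fibroblast and mesenchyme markers, led by Col3a1 and Postn, was far larger and did not overlap, at 379682 to 603274 against 190068 to 286746. Its members did not move as one: of 11 tested, 7 had lower and 4 had higher estimates, and 6 were lower and 1 was higher without overlap. The higher one was Twist1, named after its values were seen, with a log2 difference of 0.99 (adjusted p = 0.303, limma). The sum of 8 epicardial markers, led by Krt19 and Bnc1, did not overlap either, at 6534 to 7609 against 2590.0 to 6076. Of 7 tested, 6 had lower estimates and 1, Aldh1a2, had a higher one. Only 2 of the 7, Upk3b and Bnc1, were lower without overlap. The sum of 10 epithelial markers, led by Krt18 and Krt8, overlapped at 7373 to 11152 and 4978 to 13940, but all 9 tested had lower estimates (median −1.07), 5 of them without overlap. No gene of these lists was called, and their part in the members' differences was not tested. In bulk RNA, fewer cells of a type and less RNA per cell cannot be told apart.

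All 10 members had a higher estimate in the libraries labelled knockout, and none was called at an adjusted p under 0.05. Of all tested genes, 51.8% had a higher estimate, and 0.00% were called. The median log2 difference was 0.49 over the members and 0.01 over all tested genes. For 4 of the 10 members, Bmp4, Bmp6, Bmp7 and Smad7, every library labelled knockout lay above every library labelled wild type, which held for 12.8% of all tested genes. The same 4 members had an unadjusted p under 0.05, against 6.92% of tested genes in that direction and 14.2% in either direction. No member was lower in either sense, where the background was 10.8% for groups that do not overlap and 7.23% for unadjusted p. Adjusted p-values over all genes (limma, Benjamini-Hochberg) ran from 0.224 for Bmp6 to 0.882 for Id2. Without library 1 labelled knockout, 8 of the 10 estimates were higher and 2 members, Bmp4 and Bmp6, had an unadjusted p under 0.05. limma called 0 genes in all, with 2411 at an unadjusted p under 0.05, and voom with sample quality weights called 329 genes, no member among them. The members had been picked with earlier results of these data known, so these counts are descriptions.

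**Figure D1:**
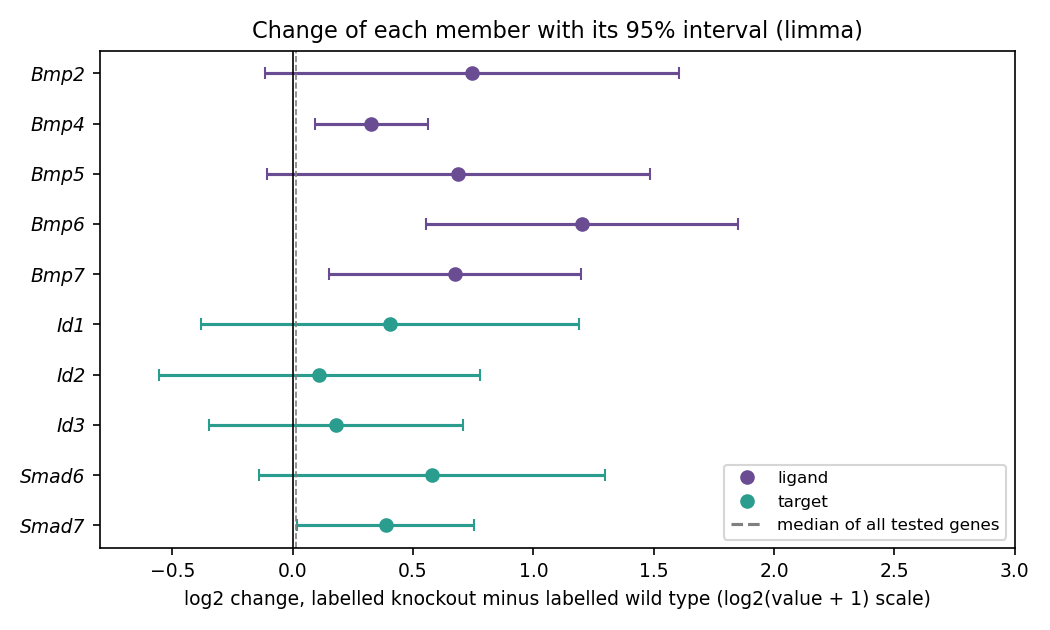
Log2 difference of each member, labelled knockout minus labelled wild type on the log2(value + 1) scale, with its 95% interval from limma (3 libraries per group). Purple marks ligands, green marks targets, and the dashed line is the median of all tested genes at 0.01. All 10 points lie to the right of 0, and the intervals of Bmp4, Bmp6, Bmp7 and Smad7 do not include 0, without adjustment for the number of genes tested.

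Bmp4 encodes the BMP ligand best known from early mesoderm and from the sinoatrial region. It lies on the minus strand of chromosome 14, from 46383520 to 46390669 (mm10). Its normalised counts were 1510.4, 1391 and 1504 in the wild-type-labelled libraries and 1754, 1989 and 1788 in the knockout-labelled ones. The groups did not overlap, and Bmp4 had the narrowest spread of the 10, its highest library standing 1.43 times above its lowest. The log2 difference was 0.33 ± 0.10 (SE), with a 95% interval of 0.09 to 0.56 and an adjusted p of 0.271 (limma). Bmp4 shares 89 exon bases with Gm15217 on the opposite strand, which did not exceed 17.0 normalised counts in any library. The unadjusted p was under 0.05 in 16 of 17 alternative analyses for Bmp4, in 17 for Bmp6, in 15 for Bmp7 and in 11 for Smad7. These analyses refit the same libraries, and the named members were those under 0.05 in the main fit, so the tallies are not independent of it. Over all genes, the number under 0.05 ran from 1487 to 3967 in these alternatives.

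Bmp6, a ligand of the same subgroup as Bmp5 and Bmp7, was the scarcest member. It lies on the plus strand of chromosome 13, from 38345107 to 38500302. It stood at 26.6, 39.1 and 37.7 normalised counts in the wild-type-labelled libraries and at 65.7, 100.1 and 76.3 in the knockout-labelled ones. The groups did not overlap, and the difference was the largest of the 10 at 1.20 ± 0.28 (SE) on the log2 scale, with an interval of 0.55 to 1.85 and an adjusted p of 0.224 (limma). Only 16 to 112 reads per library lay behind these values, so counting error is larger here than for any other member. Bmp6 shares 224 exon bases with Txndc5, a protein disulphide isomerase family gene on the opposite strand, and use of strand in the counting is not given in the sources used here. Txndc5 was at 5695 to 7541 normalised counts in the wild-type-labelled libraries and 6468 to 7114 in the knockout-labelled ones, with a log2 difference of 0.13 (adjusted p = 0.676, limma). Whether reads of Txndc5 enter the value of Bmp6 was not tested.

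Bmp7, which can pair with other BMPs into heterodimers, lies on the minus strand of chromosome 2, from 172868012 to 172940321. It stood at 682, 785 and 447 normalised counts in the wild-type-labelled libraries and at 1064, 838 and 1095 in the knockout-labelled ones. The groups did not overlap, though library 2 of each group came close, at 785 and 838. The log2 difference was 0.68 ± 0.22 (SE), with an interval of 0.15 to 1.20 and an adjusted p of 0.287 (limma). Without library 3 labelled wild type it was 0.44.

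Bmp2, the closest relative of Bmp4, lies on the plus strand of chromosome 2, from 133552159 to 133562885. It was at 534, 503 and 309 normalised counts in the wild-type-labelled libraries and at 971, 967 and 417 in the knockout-labelled ones. Library 3 of each group was the low one, and the third library labelled knockout fell within the range labelled wild type. The log2 difference was 0.74 ± 0.37 (SE), with an interval of −0.12 to 1.60 and an adjusted p of 0.400 (limma).

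Bmp5 lies on the plus strand of chromosome 9, from 75775364 to 75900310, and had the same profile. It was at 712, 706 and 446 normalised counts in the wild-type-labelled libraries and at 1318, 1229.9 and 580.0 in the knockout-labelled ones. Again library 3 was the lowest of its group, and the groups overlapped. The log2 difference was 0.69 ± 0.34 (SE), with an interval of −0.11 to 1.48 and an adjusted p of 0.400 (limma). Bmp5 shares 1878 of its 4025 exon bases with the antisense gene Gm26903, which did not exceed 88.2 normalised counts in any library. Use of strand in the counting is not given, and how reads in the shared bases were counted was not tested. Without library 3 labelled knockout, the log2 differences were 1.15 for Bmp2 and 1.07 for Bmp5, and each still had an adjusted p of 0.258 (limma). With voom and sample quality weights they were 0.36 and 0.34, and without library 3 labelled wild type 0.50 and 0.47.

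**Figure D2:**
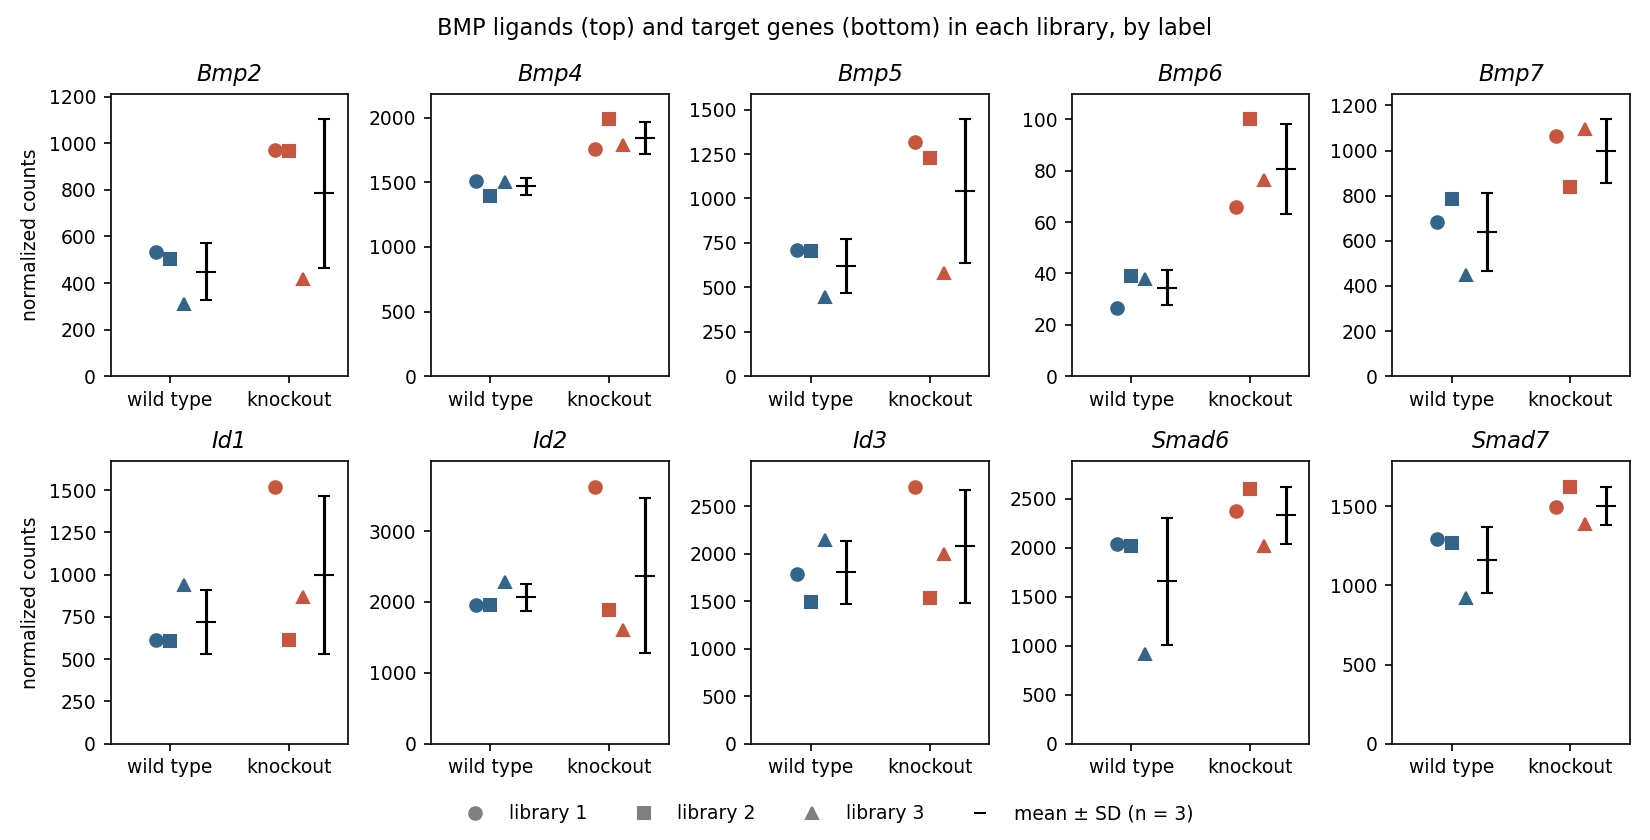
Normalised counts of each member in the 3 libraries labelled wild type and the 3 labelled knockout, with the group mean and SD, each panel on its own linear axis from 0. Bmp4, Bmp6, Bmp7 and Smad7 show groups that do not overlap, while in Bmp2 and Bmp5 library 3 of each group sits low and in the Id genes library 1 labelled knockout sits high.

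Among the targets, Smad7 was the only one whose groups did not overlap. Its product blocks activated type I receptors and recruits ubiquitin ligases to them, for TGF-beta as well as BMP receptors. Smad7, on chromosome 18, stood at 1296, 1270 and 918 normalised counts in the wild-type-labelled libraries and at 1498, 1624 and 1387 in the knockout-labelled ones. The log2 difference was 0.39 ± 0.16 (SE), with an interval of 0.02 to 0.75 and an adjusted p of 0.339 (limma). Without library 3 labelled wild type it was 0.23, with an unadjusted p of 0.0653 (limma), and with voom and sample quality weights it was 0.24.

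Smad6, the inhibitory Smad that acts chiefly on BMP signals, lies on the minus strand of chromosome 9, from 63953076 to 64022059. It stood at 2036, 2022 and 911 normalised counts in the wild-type-labelled libraries and at 2379, 2599 and 2021 in the knockout-labelled ones. The third library labelled wild type was far below the others, and the third labelled knockout fell just under the other wild-type values. The log2 difference was 0.58 ± 0.31 (SE), with an interval of −0.14 to 1.30 and an adjusted p of 0.427 (limma). Without the third library labelled wild type it was 0.19, and with voom and sample quality weights it was 0.21.

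The 3 Id genes had the smallest differences relative to their spread. Id1 lies on the plus strand of chromosome 2, from 152736251 to 152737410. It was at 612, 605 and 938 normalised counts in the wild-type-labelled libraries and at 1521, 613 and 865 in the knockout-labelled ones, with overlapping groups and a log2 difference of 0.40 ± 0.34 (SE; adjusted p = 0.601, limma). Leaving out library 1 labelled knockout brought the Id1 difference to 0.05, and leaving out library 2 of that group brought it to 0.71. Id2 lies on the minus strand of chromosome 12, from 25093799 to 25097140. It was at 1958, 1953 and 2281 in the wild-type-labelled libraries and at 3626, 1888 and 1602 in the knockout-labelled ones. Its log2 difference of 0.11 ± 0.28 (SE; adjusted p = 0.882, limma) rested on 1 high library, and without library 1 labelled knockout it was −0.24. Id3 lies on the plus strand of chromosome 4, from 136143497 to 136145755. It was at 1783, 1487 and 2144 in the wild-type-labelled libraries and at 2706, 1533 and 1993 in the knockout-labelled ones. Its log2 difference was 0.18 ± 0.22 (SE; adjusted p = 0.741, limma), and it was −0.03 without library 1 labelled knockout. The 95% intervals run from −0.38 to 1.19 for Id1, from −0.56 to 0.78 for Id2 and from −0.35 to 0.71 for Id3, so changes of either sign remain within them.

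Levels of different genes were compared per kilobase of the union of annotated exons. The order by the mean over all 6 libraries was Id3, Id2, Id1, Bmp4, Smad6, Smad7, Bmp5, Bmp7, Bmp2 and Bmp6, from 1084 to 14.8 normalised counts per kb. Bmp2 and Bmp6 were the only neighbours in this order whose ranges over the 6 libraries did not overlap. Id1 exceeded Bmp4 in 2 of 6 libraries and Bmp5 exceeded Bmp7 in 3 of 6, so these neighbours did not differ beyond their spread. Bmp4 was the most abundant ligand, at 653 ± 29.9 per kb (SD, n = 3) in the wild-type-labelled libraries and 820.1 ± 56.4 in the knockout-labelled ones. Bmp6 was at 8.83 ± 1.76 per kb and 20.7 ± 4.51, respectively.

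Summed over the 5 ligands, the level per kb was 1176, 1141 and 988 in the wild-type-labelled libraries and 1663, 1696 and 1349 in the knockout-labelled ones. Bmp4 made up 54.2% to 67.8% of that sum in the wild-type-labelled libraries and 46.9% to 59.0% in the knockout-labelled ones, and these ranges overlapped. The share of Bmp6 was 0.579% to 0.978% against 1.01% to 1.51%, which did not overlap. For Bmp2, Bmp5 and Bmp7 the ranges of the share overlapped.

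**Figure D3:**
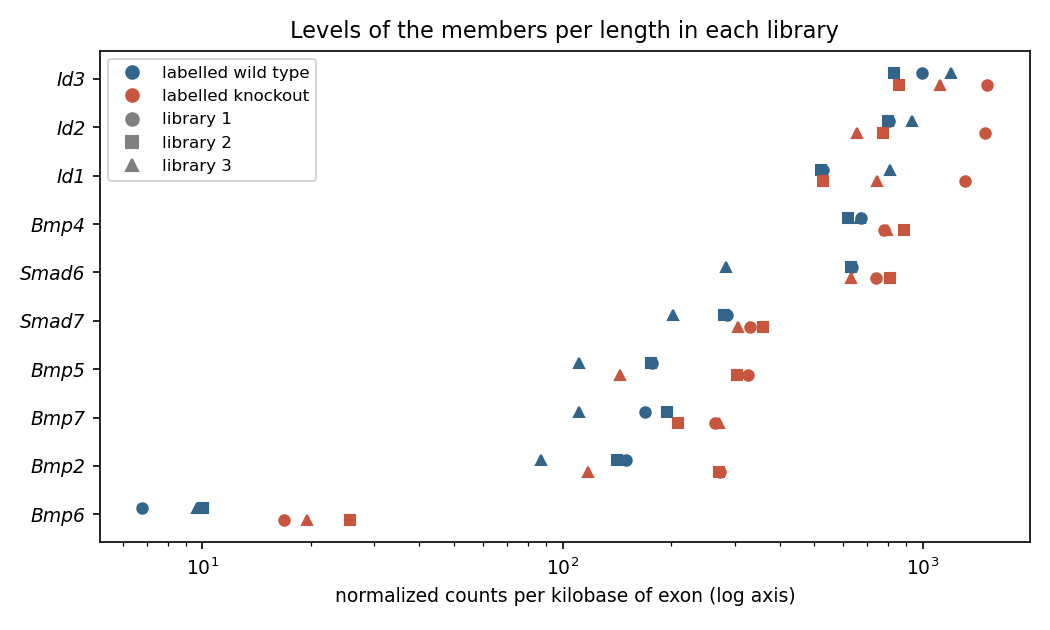
Level of each member in each library, in normalised counts per kb of exon union on a log axis, ordered by the mean over all 6 libraries. The Id genes and Bmp4 stand at the top and Bmp6, at 6.81 to 25.7 per kb, stands apart from the other 9.

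Beyond the group labels, the members fell into recurring profiles over the 6 libraries. Bmp2 and Bmp5 were each other's nearest gene among the 11854 tested genes whose mean was 100 or more, with a root-mean-square difference of 0.0585 between their centred log2 values over the 6 libraries. The next nearest gene to both was Rnf128, at 0.159 from Bmp2 and 0.143 from Bmp5. In both ligands library 3 labelled knockout was lower than the mean of the other libraries of its group, by a log2 difference of −1.21 for Bmp2 and −1.13 for Bmp5. Bmp7 did not share this, with a value of 0.21.

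Library 3 labelled wild type was the lowest of all 6 for Bmp2, Bmp5, Bmp7, Smad6 and Smad7. That is 5 of 10 members, while it was lowest for 26.6% of all tested genes. All 10 members had higher estimates in the libraries labelled knockout, so the count of 5 in part restates that direction. The log2 distance of library 3 from the mean of the other libraries labelled wild type was −1.15 for Smad6, −0.75 for Bmp2, −0.71 for Bmp7, −0.67 for Bmp5 and −0.48 for Smad7. For Bmp4 it was 0.05, and for Id1, Id2 and Id3 it was 0.62, 0.22 and 0.40. The same library had the lowest sums of cardiomyocyte markers, at 11158, and of endothelial markers (10 genes led by Kdr and Tek), at 5120 against 15894 to 15957 in the others of its group. It had the highest sum of fibroblast and mesenchyme markers, at 603274. Its sums were also the highest for sinoatrial node (9071), epicardial (7609), endoderm (10335), pluripotency (1839) and neural (5634) markers. Within the fibroblast and mesenchyme list Col1a1, Col1a2, Col3a1, Dcn and Lum were at their highest of the 6, while Pdgfra, Pdgfrb and Twist1 were at their lowest. The part of these cell types in the member values was not tested.

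Library 1 labelled knockout was the highest of all 6 for Id1, Id2 and Id3, as well as for Bmp2 and Bmp5. It held the highest value for 5 of 10 members and for 25.0% of all tested genes. That count, too, in part restates the higher estimates of all 10 members. The log2 distance of library 1 from the mean of the other libraries labelled knockout was 1.06 for Id1, 1.06 for Id2 and 0.63 for Id3. In that library the fibroblast and mesenchyme sum was 190068, the endoderm sum (12 genes led by Apob and Afp) was 879 and the epicardial sum was 2590.0, each the lowest of the 6. So were the epithelial sum, at 4978, and the smooth muscle sum, at 40164. The fibroblast and mesenchyme markers differed among themselves there. Col1a1, Col1a2, Dcn, Lum and Postn were at their lowest of the 6, while Twist1, Prrx1, Pdgfra and Pdgfrb were at their highest. The part of these cell types in the Id values was not tested. The first and second libraries labelled wild type differed by at most 0.26 on the log2 scale in 9 members and by −0.54 in Bmp6. With these averaged as 1 sample, no member was called, and the lowest adjusted p of a member was 0.505 (limma).

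**Figure D4:**
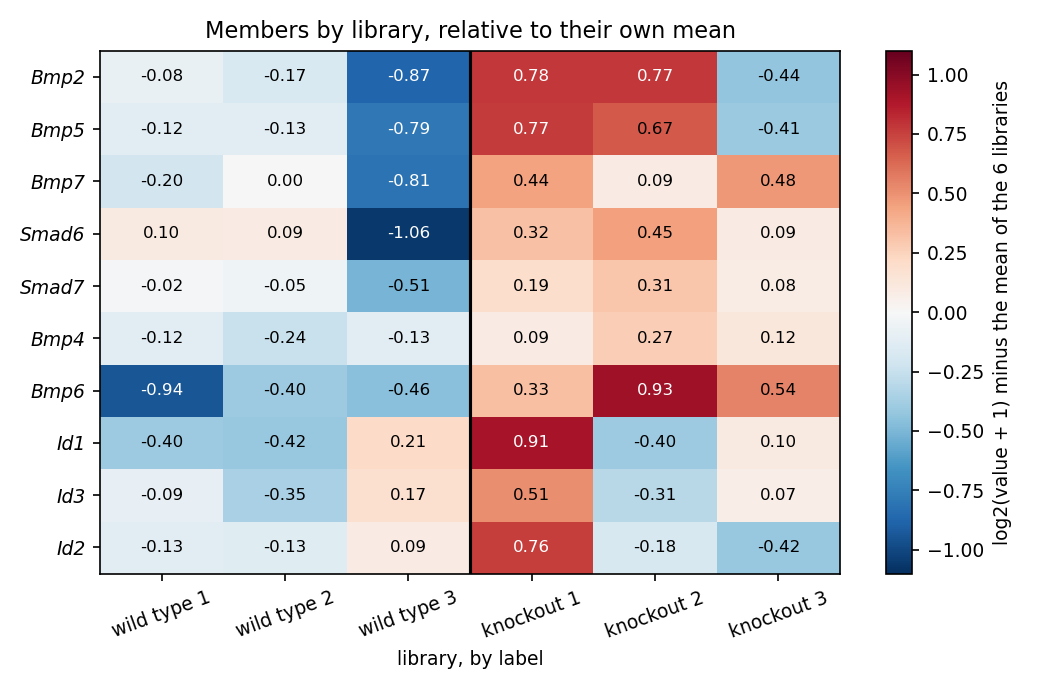
Log2 deviation of each member from its own mean over the 6 libraries, with members ordered by profile after their values were seen. Bmp2 and Bmp5 are low in library 3 of both groups, Smad6 is lowest in library 3 labelled wild type with a deviation of −1.06, and the Id genes are highest in library 1 labelled knockout.

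The distance to the nearest gene was above that of the Bmp2 and Bmp5 pair for Bmp6, Smad6 and the 3 Id genes and below it for Bmp4, Bmp7 and Smad7. It is smaller for genes that vary little, and nothing about shared control follows from it. Bmp4 was nearest to C1galt1c1 (0.0339) and Gm16072 (0.0370). Bmp7 was nearest to Hist4h4 (0.0466) and Mtfp1 (0.0593), and Bmp6 to Megf10 (0.192) and Nup62cl (0.249). Smad7 was nearest to Ranbp17 (0.0372) and Kdm1a (0.0394), and Smad6 to Ccnjl (0.0779) and 9430020K01Rik (0.0846). Id1 was nearest to Dyrk3 (0.129) and Spry4 (0.169), Id2 to Scube3 (0.114) and Gm16433 (0.125), and Id3 to Prdx6 (0.0735) and Nifk (0.0774). Among pairs of targets, Id1 and Id3 lay 0.212 apart, Smad6 and Smad7 0.247, Id2 and Id3 0.249 and Id1 and Id2 0.290.

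Estimates for the other genes of the pathway lay on both sides of 0. Groups without overlap, named below for single genes, were seen in 12.8% of all tested genes upward and in 10.8% downward. Of 13 other BMP and GDF ligand genes listed, 7 were tested, of which 2 had higher and 5 had lower estimates and none was called. Gdf10, a ligand of the TGF-beta superfamily, was at 71.4, 89.3 and 507 normalised counts in the wild-type-labelled libraries and at 15.6, 25.0 and 55.6 in the knockout-labelled ones. The groups did not overlap, the highest value came from library 3 labelled wild type, and the log2 difference was −2.36 (adjusted p = 0.287, limma). Gdf6 and Gdf11, the most abundant of these ligands, had overlapping groups, with log2 differences of −0.37 and 0.41. Gdf2 and Gdf3 were at −0.84 and −0.41, also with overlapping groups.

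Of 11 receptors and coreceptors tested, 4 had higher and 7 had lower estimates, with none called and a median of −0.10. The most abundant were the type II receptor gene Bmpr2 and the type I receptor gene Bmpr1a, with log2 differences of −0.07 and 0.04. Acvr2b, an activin and BMP type II receptor gene, was the one receptor whose groups did not overlap, at 357, 388 and 184 normalised counts in the wild-type-labelled libraries and 635, 455 and 441 in the knockout-labelled ones. Its log2 difference was 0.77 (adjusted p = 0.330, limma). The coreceptor genes Tgfbr3 and Eng were at −0.64 and −0.68, and the type II receptor gene Acvr2a at 0.18, all with overlapping groups. Of the 4 Smads that carry the signal, Smad5, Smad4 and Smad1 had log2 differences of 0.17, 0.20 and 0.09 and Smad9 of −0.27. None was called, and Smad5 alone had groups that did not overlap. Higher without overlap were thus 1 of 11 receptors and 1 of 4 Smads, against 12.8% of all tested genes.

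Of 14 extracellular antagonists and modulators tested, 5 had higher and 9 had lower estimates, with none called and a median of −0.30. Chrdl1, a chordin-like antagonist, was at 29.9, 24.1 and 43.2 normalised counts in the wild-type-labelled libraries against 0, 16.1 and 4.44 in the knockout-labelled ones. The groups did not overlap, with a log2 difference of −2.84 on the log2(value + 1) scale (adjusted p = 0.288, limma). Fst, encoding follistatin, an activin and BMP binding protein, went the other way. It was at 53.1, 39.1 and 215 against 180, 338 and 336, with overlapping groups and a log2 difference of 1.82 (adjusted p = 0.290, limma). Kcp, a secreted modulator with cysteine-rich repeats, was at −0.67 (adjusted p = 0.355, limma), and Cer1, encoding the secreted antagonist cerberus, was at −1.36 (adjusted p = 0.441, limma), both with overlapping groups. The most abundant, Fstl1 and Twsg1, were at −0.26 and 0.01.

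The 6 processing proteases tested, which cleave pro-BMPs or chordin, had 3 higher and 3 lower estimates and none called. Furin and Bmp1, a procollagen and chordin protease despite its name, were the most abundant, at 0.23 and 0.04, and Tll1, Pcsk6 and Pcsk7 were at −0.73, −0.52 and 0.12. Of 10 intracellular inhibitors other than Smad6 and Smad7, 6 had higher and 4 had lower estimates and none was called. Tob1, a protein that binds receptor-activated Smads, and Smurf1, a ubiquitin ligase for Smad1 and Smad5, had groups that did not overlap, with log2 differences of 0.43 (adjusted p = 0.284, limma) and 0.24. That is 2 of 10, while 12.8% of all tested genes were higher without overlap. Fkbp1a, which guards type I receptors against leaky activation, was at 0.33, Ppm1a at 0.18, and the most abundant of the list, Skil and Bambi, at −0.11 and 0.15.

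Other BMP-responsive genes were mixed: of 9 tested, 6 had higher and 3 had lower estimates, with a median of 0.28 and none called. Msx1, a homeobox gene, was at 692, 731 and 196 normalised counts in the wild-type-labelled libraries and 1855, 848 and 753 in the knockout-labelled ones, without overlap (log2 difference 1.19, adjusted p = 0.380, limma). Tbx2, a T-box repressor of the atrioventricular canal, was at 617, 571 and 797 against 1287, 765 and 1188, with overlap at 797 and 765 (0.69, adjusted p = 0.287, limma). Hey1, a repressor at the edge of that canal which Notch also induces, was lower without overlap, at 305, 370 and 315 against 227, 257 and 237 (−0.45, adjusted p = 0.287, limma). Msx2 was at 148, 141 and 143 against 585, 233 and 126 (0.84, adjusted p = 0.467, limma), and its groups overlapped. Hand1, a basic helix-loop-helix gene, was at 0.45 with overlapping groups. Library 1 labelled knockout was the highest of the 6 for 5 of these 9 genes, Msx1, Msx2 and Tbx2 among them, as it was for the 3 Id genes. It was the highest for 25.0% of all tested genes. With 6 of the 9 estimates higher, the count of 5 in part restates that direction. Among the E proteins that Id proteins capture, Tcf3 was at 3215, 3031 and 2307 against 4258, 3265 and 3600.5, without overlap (0.38, adjusted p = 0.344, limma), and Tcf12 and Tcf4 were at 0.19 and −0.19.

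**Figure D5:**
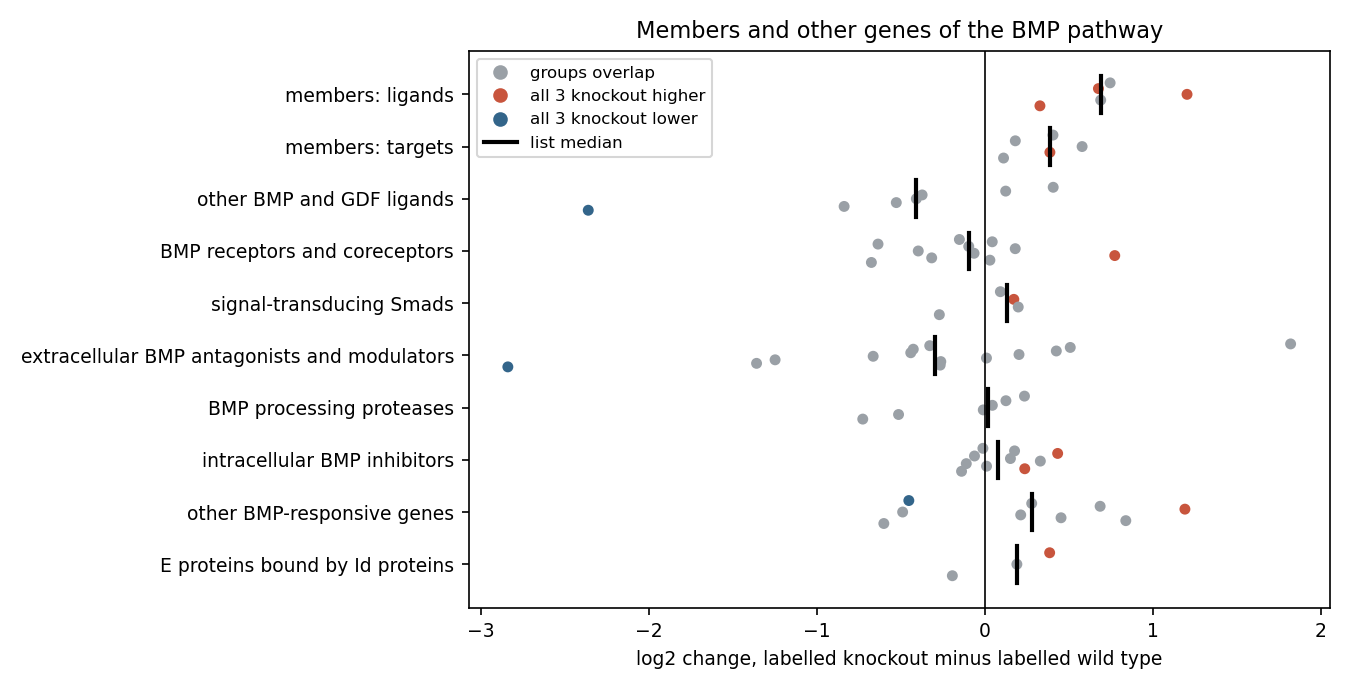
Log2 difference, labelled knockout minus labelled wild type, of every tested gene in each list of the pathway, with the list's median as a bar. The members' ligands and targets lie wholly above 0, with medians of 0.69 and 0.39. Medians are also above 0 for other BMP-responsive genes (0.28), E proteins (0.19), signal-transducing Smads (0.13), intracellular inhibitors (0.08) and proteases (0.02). They are below 0 for the other ligands (−0.41), the antagonists (−0.30) and the receptors (−0.10).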

How the data were processed

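The submitters' processing notes name the build mm10 and the tools HTSeq, BWA, DESeq2 1.14.0 and CASAVA 1.8.2 without saying what each did. The deposited values are gene-level counts that the authors divided by 1 size factor per library. Dividing each library by the worth of 1 read gave whole reads for 100% of values within 0.1 reads.

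Values were analysed as log2(value + 1) with limma 3.58.1 in R 4.3.3 (1 term for the labelled genotype, trended empirical Bayes, two-sided, Benjamini-Hochberg over 17034 genes). This scale understates changes of low genes. Calls were made at adjusted p under 0.05. The fit was tested on simulated data. Positions and exon lengths came from GENCODE M21.

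The 10 members and the pathway and marker lists were chosen with earlier results of these data known. In each pathway list, up to 4 tested genes with the lowest unadjusted p and up to 2 with the highest mean are named, in each marker list the 2 highest, and 2 nearest genes per member. Other pseudocounts, filters, scalings and fits, voom on the recovered reads, and leaving out each library were tried. So was averaging the first and second libraries labelled wild type as 1 sample. Results for 1 further gene of the pathway lists are not reported here, and it is left out of its list's counts.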

Additional observations from a re-analysis of the deposited data

How the results depend on the processing

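No member was called under any of 17 alternatives, and the lowest adjusted p of a member was 0.0535 (Bmp6, voom with sample quality weights, limma). Over all genes, limma called 0. It called 2 with no filter, 329 with voom and sample quality weights, and 0 to 51 when 1 library was left out, the 51 without library 2 labelled knockout. The cause was not tested. The other 8 members had a higher estimate under all 17, Id2 and Id3 being the exceptions. Id2 was at −0.045 with a replicate block for the 3 libraries whose titles carry Diff9, a number whose meaning is not stated. The block changed no call. With the first and second libraries labelled wild type, both Diff9, averaged as 1 sample, 0 genes were called. Of all tested genes, 1585 were then at an unadjusted p under 0.05, Bmp4, Bmp6, Bmp7 and Smad7 among them. Leaving out 1 library gave −0.24 to 0.35 for Id2 and −0.030 to 0.38 for Id3, both lowest without library 1 labelled knockout. It gave 0.50 to 1.15 for Bmp2, 0.47 to 1.07 for Bmp5, 0.44 to 0.84 for Bmp7, 0.05 to 0.71 for Id1, 0.19 to 0.77 for Smad6 and 0.23 to 0.47 for Smad7. With the longest transcript as length, the levels per kb labelled wild type were 711 for Bmp4, 1048 for Id2 and 1412 for Id3. The planned edgeR and DESeq2 fits on recovered reads were not run. Precision rests on 3 libraries per group, on 16 reads for Bmp6 in the shallowest library labelled wild type, and on clones that cannot be told apart from genotype.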

Other observations

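Group ranges of further marker sums were as follows. The 7 smooth muscle markers, led by Acta2 and Tagln, summed to 43851 to 50464 normalised counts in the wild-type-labelled libraries and 40164 to 50564 in the knockout-labelled ones. Pluripotency markers (10 genes, led by Sox2 and Tdgf1) summed to 1067 to 1839 and 1247 to 1472. Neural markers (10 genes, led by Nes and Tubb3) summed to 2659 to 5634 and 3466 to 4052, and Neurog2 was under 10 in every library.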
